A study of Mus musculus with 13 samples.

Results

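The 9 genes described here encode parts of the Nodal signalling pathway: the ligand Nodal, its secreted inhibitor Lefty1, the co-receptor Tdgf1 (Cripto), the receptors Acvr1b (ALK4) and Acvr2b, the signal mediator Smad2, its transcription partner Foxh1, and the convertases Furin and Pcsk6. They were taken from 8388 mouse genes that have a probe set of their symbol alone on either of 2 Affymetrix chip versions. They hold 9 of the 12654 probe sets on U74A and 10 of the 12488 on U74Av2, with Lefty1 represented by a second probe set on U74Av2. The genes were selected on measured values: their signal ratios of PD169316 and SB203580 to untreated cells in the line S1, and of PD169316 to untreated cells in the line D4. These ratios are therefore given as a description, with no test.

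Nodal is a ligand of the TGF-beta family. It binds type I and type II activin receptors together with an EGF-CFC co-receptor such as Tdgf1. The receptors phosphorylate Smad2 and Smad3, which enter the nucleus with Smad4 and act on DNA together with Foxh1. Furin and Pcsk6 (PACE4) cut the Nodal precursor. In the mouse embryo Nodal and Lefty genes are themselves targets of the pathway, and Lefty proteins block the ligand, which closes a feedback loop. Mouse embryonic stem (ES) cells make Nodal, Lefty1 and Tdgf1, and the pathway takes part in the choice between staying pluripotent and forming mesendoderm.

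The 13 arrays measured RNA of adherent ES cells grown for 3 days without LIF (leukaemia inhibitory factor), a cytokine that sustains mouse ES cell self-renewal, after culture in serum medium with 500 pM LIF. In the feeder-dependent line D4, which was taken off its feeders before the experiment, 1 array came from cells with 10 uM PD169316 and 1 from untreated cells, both on U74A. In the feeder-free line S1 there were 2 arrays with 10 uM PD169316, 1 with 10 uM SB203580 and 2 of untreated cells on U74A, and 2 of each kind on U74Av2. PD169316 and SB203580 are both pyridinyl imidazole inhibitors of p38 MAP kinases. All groups shared the LIF withdrawal. The comparisons with untreated cells share the same untreated arrays. The 1 SB203580 array on U74A was assumed to vary like the others. SEs and intervals that involve it rest on the spread of the PD169316 and untreated arrays. Nothing states that replicates came from separate cultures, so the p-values measure the spread between these arrays, which may be technical.

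Values are MAS 5.0 signals, scaled by the authors to a trimmed mean of 300 on each array. Signals of different probe sets, or of the 2 chip versions, were not set against each other. Log2 values were taken after signals under 32 were set to 32. The files record 5 hybridization days: day 1 held both D4 arrays, days 2 and 5 a PD169316 and an untreated S1 array each, day 3 the S1 arrays of replicate 1 of all groups on both chip versions, and day 4 the other SB203580 array. The day 3 arrays of both versions may carry the same RNA. The untreated S1 arrays of day 3 had a 3' to 5' signal ratio of Actb of 3.31 and 3.21, against 1.46 to 2.25 on the other 11 arrays. ES cell identity was checked on a list of 10 markers: Pou5f1 had a signal of at least 3450.4, Sox2 of at least 1434.9 and Utf1 of at least 2452.7 on every array. Zfp42 and Fgf4 also exceeded 100 on every array, as did Nanog and Dppa5a on U74Av2. The rest of the list did not: Klf4 reached 100 on 4 of 7 U74A and 5 of 6 U74Av2 arrays and Esrrb on none, and Tdh was not measured. Markers of other cell types were not all low. The 8 endoderm markers summed to 260 to 749 on U74A and 414 to 813 on U74Av2, with Gata4 reaching 346 and Hnf4a at or under 50.2. Of the neural markers, Nes read at least 167 on every array and Tubb3, measured on U74Av2 alone, at least 2304.5. Of the fibroblast markers, Col1a2 was at or under 29.7 on U74A and between 299 and 886 on U74Av2. Col1a1 reached 100 on 5 of 7 U74A and 5 of 6 U74Av2 arrays, and Thy1 on 5 and 4 in the same order. Col3a1 reached it on 1 array of each version and Postn on none, and Pdgfrb, measured on U74Av2 alone, stayed at or under 50.4. The 5 trophoblast markers summed to 186 to 545 on U74A and 276 to 622 on U74Av2, with Hand1 reaching 273.5 and Krt7 158.9. In bulk RNA, fewer cells of a type and less RNA per cell cannot be told apart.

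Promoter windows, from 250 bases before to 50 after the RefSeq start in GRCm38.p6, were at hand for 6 of the 9 genes. The windows of Tdgf1 and Nodal are shown because these 2 genes had lower signals with both inhibitors, and because Foxh1 and Smad proteins are the known DNA-binding end of the pathway. The letters TGTNNATT, a Foxh1-type motif, and GTCTAGAC, a palindrome bound by Smad proteins, were searched on both strands, and matches are in capitals. Tdgf1 lies at chr9:110946109-110946408 on the minus strand and Nodal at chr10:61417722-61418021 on the plus strand, and both are written in the direction of the gene.
Tdgf1: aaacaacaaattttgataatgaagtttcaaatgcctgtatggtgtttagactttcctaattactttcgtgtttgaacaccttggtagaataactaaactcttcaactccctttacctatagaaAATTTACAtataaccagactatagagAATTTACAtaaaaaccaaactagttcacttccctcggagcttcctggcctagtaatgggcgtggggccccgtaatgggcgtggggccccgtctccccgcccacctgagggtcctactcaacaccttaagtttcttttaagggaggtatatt
Nodal: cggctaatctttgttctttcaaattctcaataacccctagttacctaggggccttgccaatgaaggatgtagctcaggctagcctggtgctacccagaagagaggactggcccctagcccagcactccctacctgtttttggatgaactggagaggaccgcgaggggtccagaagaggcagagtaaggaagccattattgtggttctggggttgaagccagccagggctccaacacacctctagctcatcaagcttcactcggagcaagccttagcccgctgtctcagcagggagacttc
The Tdgf1 window held TGTNNATT, where N is any base, at 2 places. Both lie on the opposite strand, are written here as AATTTACA, and begin 127 and 101 bases before the start. Narrower forms of the motif, with set bases at N, were not searched, so these are loose matches. The Nodal window held neither motif, and neither did those of Acvr1b, Acvr2b, Furin and Pcsk6. The Foxh1-type letters occurred in 12.2% of all 32851 windows and the palindrome in 0.213%. No match overlapped a match of the other motif. A match is a description of the letters and not a site of binding.

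With either inhibitor, the ligand, its inhibitor and its co-receptor had lower signals than untreated cells in all 8 pairs of arrays. The pairs are 4 of PD169316 in S1, 3 of SB203580 in S1 and 1 of PD169316 in D4. How many of all probe sets were lower in all 8 pairs, or had groups without overlap, was not counted. Such statements therefore have no background share beside them. Within single pairs, ratios were ranked among 5681 probe sets on U74A or 7050 on U74Av2. The share with a ratio below that of the gene was 1.8% to 12.9% for Nodal, 0.088% to 4.9% for Lefty1 and 0.070% to 7.4% for Tdgf1. No other member went one way in all 8 pairs: Smad2 was higher in 6, Furin higher in 5, Acvr2b lower in 5, and Acvr1b, Foxh1 and Pcsk6 were split evenly.

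Nodal, the ligand, had signals of 345 and 381 with PD169316 and 227 with SB203580 on S1 U74A arrays, against 651 and 656.5 in untreated cells. Its U74Av2 signals were 291 and 320.5 with PD169316 and 283 and 353 with SB203580, against 817 and 647 in untreated cells. D4 gave 363 with PD169316, against 862 in untreated cells. The treated and untreated arrays did not overlap in either table or line. The log2 ratio in S1 was -0.85 ± 0.37 (SE) with PD169316 and -1.53 ± 0.46 with SB203580 on U74A, and -1.25 ± 0.30 and -1.20 ± 0.30 in the same order on U74Av2. In D4 it was -1.25 from 1 pair. The S1 pair ratios ran from -1.49 to -0.79 for PD169316 and from -1.53 to -0.87 for SB203580.

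Lefty1, the inhibitor of Nodal, read 519.8 with PD169316 in D4 against 2573 in untreated cells, a log2 ratio of -2.31. On S1 U74A arrays it had 114 and 544 with PD169316 and 339 with SB203580, against 1214.5 and 1448.5 in untreated cells. The U74Av2 readings were 307 and 455.5 with PD169316 and 257 and 358 with SB203580, against 1035 and 1171.5 in untreated cells. The log2 ratio was -2.41 ± 0.65 (SE) with PD169316 and -1.97 ± 0.80 with SB203580 on U74A, and -1.56 ± 0.32 and -1.86 ± 0.32 in the same order on U74Av2. Treated and untreated arrays did not overlap. PD169316 replicate 1 on U74A was the lowest array, and without it the U74A ratio with PD169316 was -1.29. The other Lefty1 probe set of U74Av2 went the other way at low signal: 98.5 and 67.2 with PD169316 and 59.5 and 28.4 with SB203580, against 20.4 and 13.0 in untreated cells. It did not reach a signal of 100 on any array and was not tested. Its suffix, "_f_at", marks probes shared within a sequence family. Lefty1 and Lefty2 are near-identical, and how far each probe set reads Lefty2 was not tested.

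Tdgf1, the co-receptor, had 15.9 and 209 with PD169316 and 182 with SB203580 on S1 U74A arrays, against 343 and 507.5 in untreated cells. U74Av2 arrays gave 162 and 159 with PD169316 and 154 and 237 with SB203580, against 419.6 and 467 in untreated cells. D4 readings were 249 with PD169316, against 590.4 in untreated cells, a log2 ratio of -1.25. Treated and untreated arrays did not overlap. The log2 ratio in S1 was -2.35 ± 0.82 (SE) with PD169316 and -1.20 ± 1.003 with SB203580 on U74A, and -1.46 ± 0.35 and -1.21 ± 0.35 in the same order on U74Av2. The reading of 15.9 lies under the floor of 32 and comes from PD169316 replicate 1, the array that was also lowest for Lefty1. Without that array the U74A ratio of Tdgf1 with PD169316 was -0.999. The Tdgf1 probe set carries the suffix "_r_at", given where Affymetrix relaxed a rule of probe choice.

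**Figure D1:**
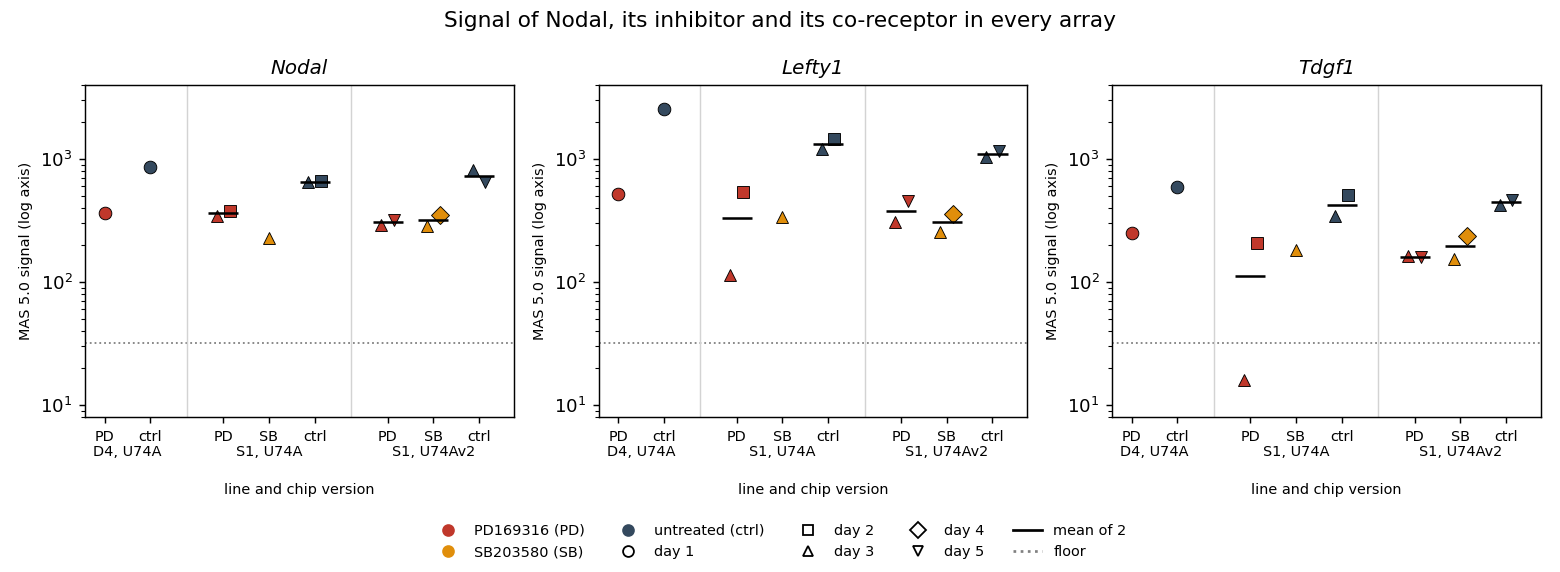
MAS 5.0 signal of Nodal, Lefty1 and Tdgf1 on a log axis in each of the 13 arrays, by line, chip version and treatment; the symbol gives the hybridization day, bars the mean of 2 arrays and the dotted line the floor of 32. Every treated array lies below every untreated array of its line and chip version.

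These ratios kept their sign within hybridization days. The same-day comparison has limits on day 3, where the untreated arrays are those with Actb ratios of 3.31 and 3.21. The untreated U74A array of that day was also of another chip lot than its PD169316 and SB203580 arrays, so lot and treatment cannot be told apart there. On day 3 the S1 log2 ratios with PD169316 were -0.92 for Nodal, -3.41 for Lefty1 and -3.42 for Tdgf1 on U74A, and -1.49, -1.76 and -1.37 in the same order on U74Av2. On day 2 they were -0.79, -1.41 and -1.28 (U74A), and on day 5 -1.01, -1.36 and -1.55 (U74Av2). With SB203580 on day 3, U74A gave -1.52, -1.84 and -0.92, and U74Av2 gave -1.53, -2.01 and -1.44. The last SB203580 array was hybridized on day 4 with no untreated array, and was set against the untreated array of day 5: -0.87 for Nodal, -1.71 for Lefty1 and -0.98 for Tdgf1. With hybridization day as a block on U74A, the SB203580 ratio of Tdgf1 was -0.38 ± 0.77 (SE) and that of Lefty1 -1.34 ± 0.62, both closer to 0 than without the block, while that of Nodal was -1.49 ± 0.49. The PD169316 ratios were fitted there without the SB203580 array, with 1 PD169316 and 1 untreated array a day. The block could therefore not change their size. Over the 6 S1 arrays of U74Av2, Pearson's r of the log2 signals was 0.95 for Lefty1 with Nodal, 0.93 for Lefty1 with Tdgf1 and 0.96 for Nodal with Tdgf1. Over the 5 S1 arrays of U74A it was 0.74, 0.97 and 0.56. These arrays include both treated and untreated cells, and the ratios between them selected the genes. The selection itself favours a high r, so these values are no separate observation, and no p is given.

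The summed signal of ES cell markers moved with these ratios on U74Av2. Dppa5a, Utf1 and Pou5f1, with median signals of 8238, 7447 and 7004 there, weigh most in it, so it does not speak for each marker. The summed signal of the 9 measured markers was 25014 and 28078 with PD169316 and 29449 and 25524 with SB203580, against 37159 and 38328 in untreated cells, with no overlap. On U74A the sum of 7 markers was 13086 and 10024 with PD169316 and 18084 with SB203580, against 20728 and 15192 in untreated S1 cells, and 12182 with PD169316 against 11292 in untreated cells of D4. Esrrb was under a signal of 100 on every array, and Nanog and Dppa5a were measured on U74Av2 alone. In D4 the ES marker sum was not lower with PD169316 while Nodal, Lefty1 and Tdgf1 were. The summed signal of 4 neural markers was higher with PD169316 on U74A. In D4 it was 1105 with PD169316 against 469 in untreated cells. In S1 it was 963 and 750.0 with PD169316 and 454 with SB203580, against 403 and 461.5 in untreated cells. Nes reached 847 on U74A, while Sox1 reached 80.1, Pax6 129 and Neurod1 168, so the sum does not speak for each marker. The neural sum of 5 on U74Av2 was 3362 and 4019 with PD169316 and 2888 and 3065 with SB203580 against 3795 and 2991 in untreated cells. There the groups overlapped, and Tubb3 made up most of the sum. The mesoderm sum of 3 was 52.8 with PD169316 against 526 in untreated D4 cells, of which Eomes made up 382.4. On S1 U74A arrays this sum was 266 and 183 with PD169316 and 128 with SB203580, against 238 and 88.4 in untreated cells. U74Av2 gave 178 and 105 with PD169316 and 238 and 178 with SB203580, against 127 and 226 in untreated cells. Treated and untreated S1 arrays overlapped in both tables. The part of these marker changes in the ratios was not tested.

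The receptor genes did not share this pattern. Acvr1b, the type I receptor ALK4, had 134 and 223 with PD169316 and 90.1 with SB203580 on S1 U74A arrays, against 92.0 and 45.2 in untreated cells. U74Av2 signals of Acvr1b were 269 and 71.0 with PD169316 and 96.9 and 98.2 with SB203580, against 73.4 and 99.6 in untreated cells. D4 signals were 28.9 with PD169316, under the floor, against 204.5 in untreated cells. Most of these signals were below 100, and the groups overlapped on U74Av2, where Acvr1b failed the filter of 100 on at least 2 arrays. Acvr2b, the type II receptor, had 554 and 1078 with PD169316 and 895 with SB203580 on S1 U74A arrays, against 1003 and 896.5 in untreated cells. U74Av2 readings of Acvr2b were 556 and 649 with PD169316 and 911 and 854 with SB203580, against 926 and 844.5 in untreated cells, so there both PD169316 arrays lay below all others. D4 gave 1307 with PD169316 against 1275 in untreated cells.

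Smad2 and Foxh1, the nuclear end of the pathway, showed no shared direction. Smad2 had 421 and 233.5 with PD169316 and 315 with SB203580 on S1 U74A arrays, against 251 and 211 in untreated cells. Smad2 on U74Av2 read 405 and 406 with PD169316 and 381 and 362 with SB203580, against 251 and 404 in untreated cells. D4 readings were 252 with PD169316 against 272 in untreated cells. The S1 log2 ratio with PD169316 was 0.45 ± 0.46 (SE) on U74A and 0.35 ± 0.33 on U74Av2, within about 1 SE of no difference. Foxh1 had 129.7 and 98.4 with PD169316 and 90.6 with SB203580 on S1 U74A arrays, against 141 and 351 in untreated cells. Foxh1 on U74Av2 read 145 and 200.1 with PD169316 and 284 and 249 with SB203580, against 23.5 and 169 in untreated cells. D4 signals were 219 with PD169316 against 396 in untreated cells. Foxh1 was thus lower with both inhibitors on U74A (log2 ratios -0.98 and -1.29, PD169316 first) and higher with both on U74Av2 (1.21 and 1.85). The U74Av2 values rest on untreated replicate 1, whose signal of 23.5 is under the floor, and without it they were 0.0095 and 0.65.

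The convertases, too, did not move together. Furin had 233 and 429 with PD169316 and 293 with SB203580 on S1 U74A arrays, against 201 and 423 in untreated cells. Furin on U74Av2 read 455.5 and 386 with PD169316 and 432 and 325 with SB203580, against 477 and 328.5 in untreated cells, and in D4 422 with PD169316 against 343 in untreated cells. Its S1 ratios lay between -0.079 and 0.12 on the log2 scale, with SEs from 0.33 to 0.64. Pcsk6 had 59.7 and 84.1 with PD169316 and 137 with SB203580 on S1 U74A arrays, against 108 and 56.0 in untreated cells. Pcsk6 on U74Av2 read 388 and 181 with PD169316 and 87.7 and 92.1 with SB203580, against 103 and 173 in untreated cells. D4 gave 43.9 with PD169316 against 86.8 in untreated cells. Both PD169316 arrays of U74Av2 lay above all others of that table, which was not so on U74A.

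**Figure D2:**
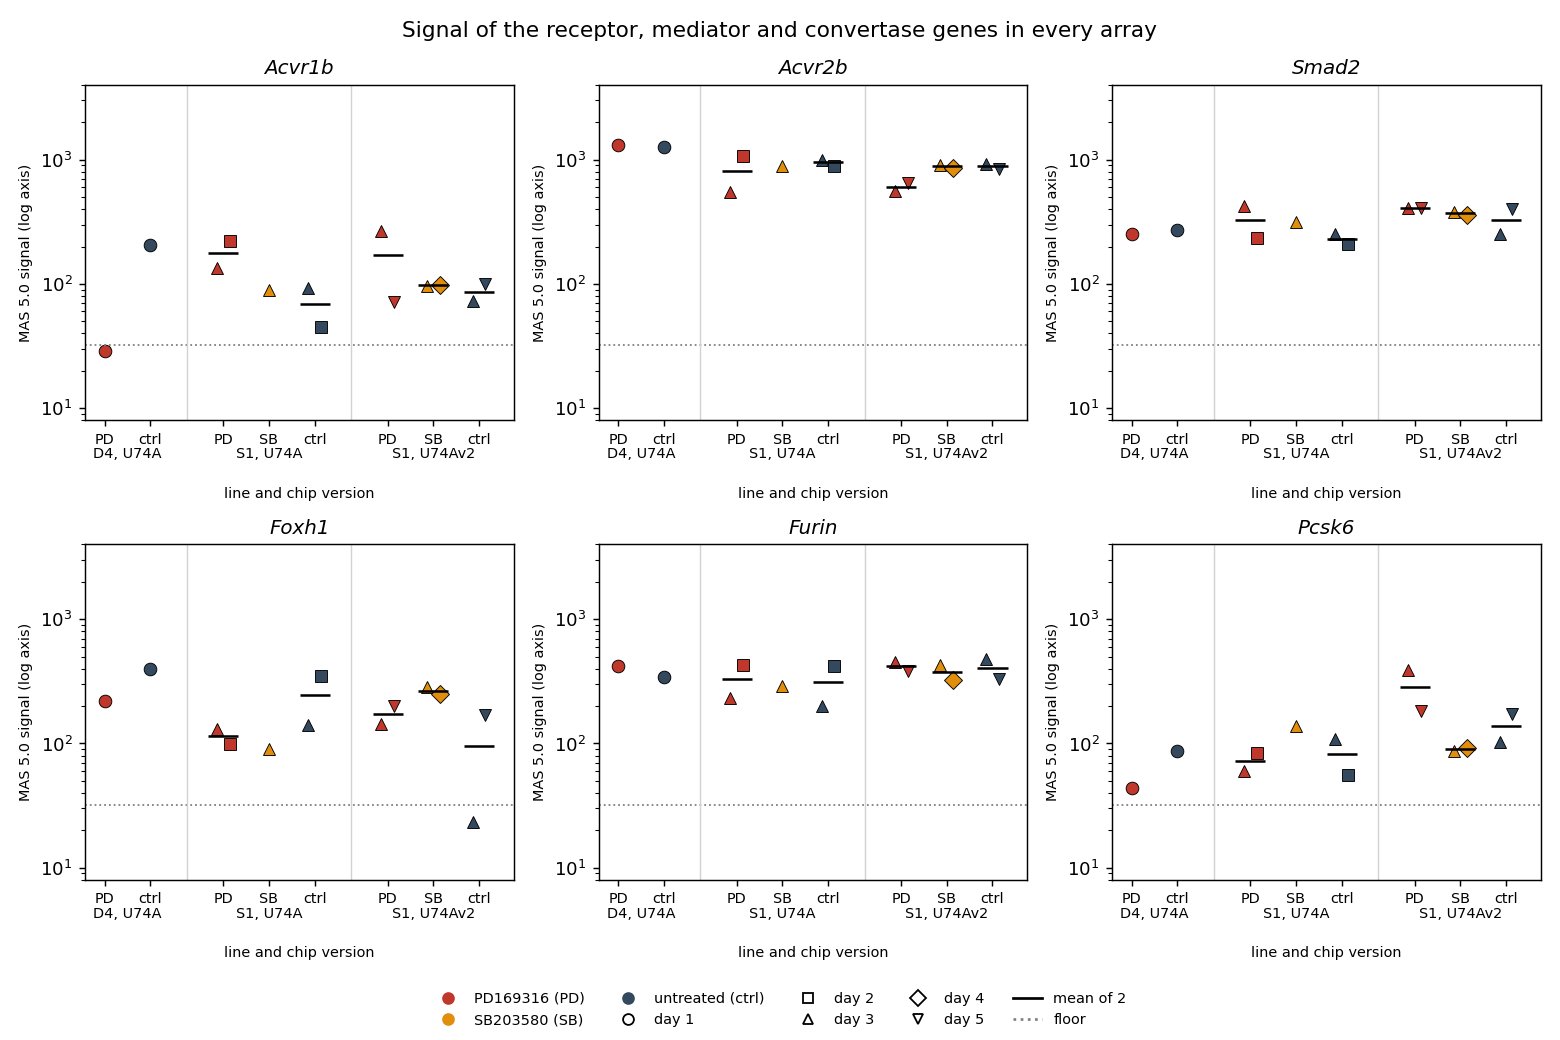
MAS 5.0 signal of Acvr1b, Acvr2b, Smad2, Foxh1, Furin and Pcsk6 on a log axis in each array, by line, chip version and treatment, with symbols for the hybridization day, bars for the mean of 2 arrays and the floor of 32 as a dotted line. Treated and untreated arrays overlap for Furin in both chip versions, and 1 reading each of Acvr1b and Foxh1 lies under the floor.

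Over all 9 genes the median log2 ratio with PD169316 in S1 was -0.30 on U74A and 0.083 on U74Av2, beside 0.043 and 0.00039 over all probe sets that passed the filter. With SB203580 it was -0.084 on U74A and -0.079 on U74Av2, beside -0.025 and -0.024. With PD169316 in D4 it was -0.98, from 1 pair, beside -0.011. In S1, Nodal, Lefty1 and Tdgf1 were lower in every pair, and none of the other 6 genes was.

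**Figure D3:**
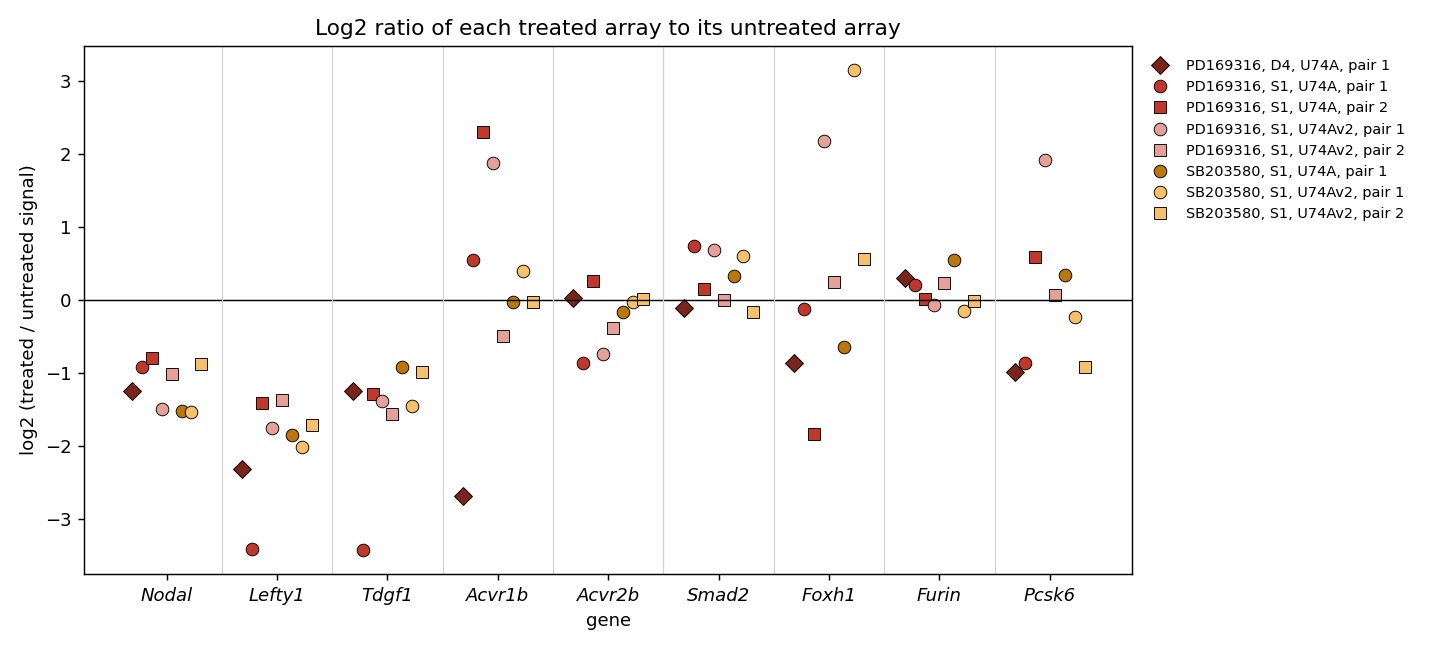
Log2 ratio of treated to untreated signal for the 9 genes in each of the 8 pairs of arrays, with PD169316 in D4 and S1 in reds and SB203580 in S1 in oranges. All points of Nodal, Lefty1 and Tdgf1 lie below 0, while the other 6 genes have points on both sides.

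PD169316 and SB203580 were compared at the same dose and time in S1. Without a block the estimate does not use the untreated arrays, though its spread does. With hybridization day as a block on U74A the estimate uses them too. The ratios of both compounds to untreated cells chose the genes, and this is their difference. For the 9 genes its p-values are therefore not independent of the choice and are given as a description. No member was called by the limma test with Benjamini-Hochberg adjustment over all probe sets. On U74Av2 the test called 3 of 7050 probe sets (0.0426%), none of them among the 8 member probe sets tested. On U74A it called 0 of 5681 (0%), with 213 at an unadjusted p under 0.05 and none of the 9 members among those. Over both tables it called 6 of 5369 (0.112%), again no member. For Nodal the difference was 0.68 on U74A (95% confidence interval -0.36 to 1.72) and -0.049 on U74Av2 (-0.72 to 0.62). For Lefty1 it was -0.44 (-2.27 to 1.38) and 0.30 (-0.40 to 1.003), in the same order. For Tdgf1 it was -1.15 (-3.44 to 1.13) and -0.25 (-1.03 to 0.52). With hybridization day as a block, the Tdgf1 difference on U74A was -1.97 (-3.69 to -0.25, limma adjusted p = 0.998) and that of Lefty1 -1.07 (-2.45 to 0.31). On U74Av2, where the block set days 4 and 5 together, it was -0.25 (-0.99 to 0.48) for Tdgf1, and 22 probe sets were called in place of 3. The U74Av2 intervals reach -1.03 for Tdgf1 and 1.003 for Lefty1, so the data do not show that the compounds act alike on these genes.

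Pcsk6 had the smallest p-value of the members in this comparison, and was the only one under 0.05 before adjustment, as were 515 of all 7050 probe sets. PD169316 was higher than SB203580 by 1.56 ± 0.50 (SE, n = 2 each) on U74Av2, with an interval of 0.47 to 2.65, and the limma adjusted p was 0.511. On U74A the difference was -0.95 (-3.13 to 1.22), the opposite sign. The Acvr2b difference was -0.55 on U74Av2 (-1.13 to 0.025, limma adjusted p = 0.700) and -0.21 on U74A (-1.33 to 0.91). On day 3, the only day with arrays of both compounds, the log2 difference of Acvr2b was -0.69 on U74A and -0.71 on U74Av2, and that of Tdgf1 was -2.51 and 0.068. The other differences on U74Av2 were 0.13 for Smad2, -0.64 for Foxh1 and 0.16 for Furin, each with an interval across 0.

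**Figure D4:**
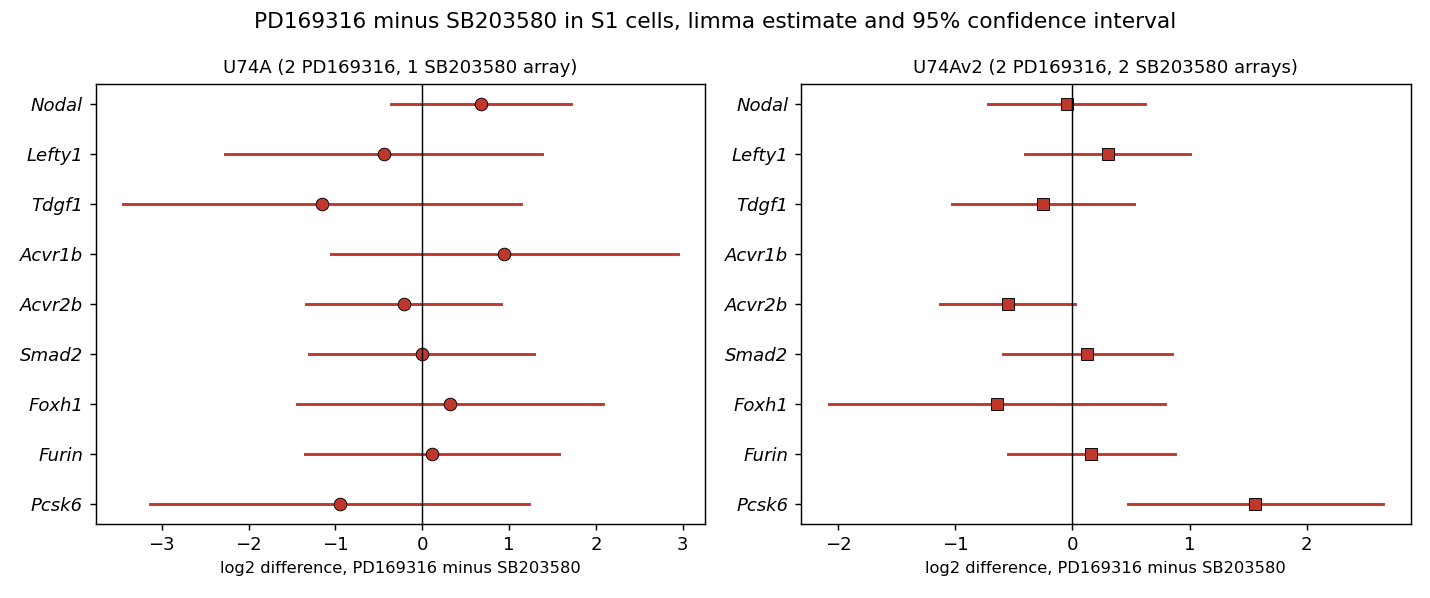
Log2 difference of PD169316 minus SB203580 in S1 for each gene on U74A (left) and U74Av2 (right), as the limma estimate with its 95% confidence interval; Acvr1b on U74Av2 failed the signal filter and is not drawn. Only the interval of Pcsk6 on U74Av2 lies wholly on one side of 0.

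The lines were compared on U74A with treatment allowed for, from 2 D4 and 5 S1 arrays. The D4 arrays are the whole of hybridization day 1, so line and day cannot be told apart. The summed signal of 5 fibroblast markers, looked at because D4 had been kept on feeders, was 842 with PD169316 and 611 in untreated cells of D4 and ranged from 110 to 681 in S1, and its part in the line differences was not tested. Limma called 0 of 6282 probe sets (0%), with 393 at an unadjusted p under 0.05 and none of the 9 members among them. Lefty1 was higher in D4 by 1.01 ± 0.48 (SE; 95% confidence interval -0.029 to 2.05, limma adjusted p = 0.777), Tdgf1 by 1.05 ± 0.63 (-0.32 to 2.43, limma adjusted p = 0.859) and Foxh1 by 0.90 ± 0.50 (-0.18 to 1.97, limma adjusted p = 0.837). Acvr2b was at 0.59 (-0.075 to 1.26) and Nodal at 0.20 (-0.47 to 0.88). None of these passed, and the lower ends of the Lefty1 and Acvr2b intervals lie just below 0. In untreated cells alone, Lefty1 read 2573 in D4 against 1214.5 and 1448.5 in S1, and Nodal 862 against 651 and 656.5.

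The PD169316 ratio in D4 was also set against that in S1 on U74A. Over all probe sets, limma's interaction test called 0 of 6282 (0%), with 156 at an unadjusted p under 0.05. For the 9 genes both ratios were among the values that selected them, so their differences are a description with no test. The difference of log2 ratios, D4 minus S1, was -0.40 for Nodal, 0.10 for Lefty1 and 1.10 for Tdgf1, from 1 D4 pair. The value farthest from 0 was that of Acvr1b, at -4.10. Its D4 reading with PD169316 was under the floor, and its untreated S1 readings were below the filter of 100.

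**Figure D5:**
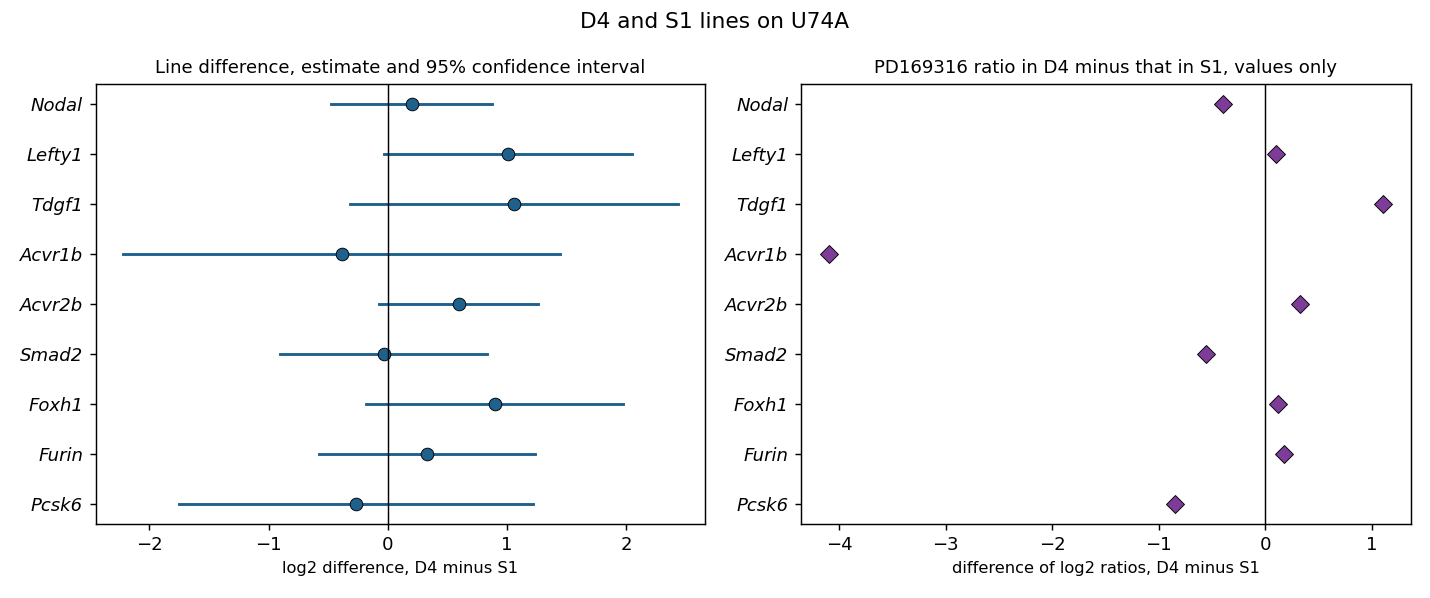
Values on U74A for each gene: the D4 minus S1 log2 difference with treatment allowed for, as the limma estimate with its 95% confidence interval (left), and the PD169316 log2 ratio in D4 minus that in S1, with no interval (right). All intervals on the left include 0, and on the right Acvr1b lies farthest from 0.

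A wider list of 58 ligands, receptors, convertases, mediators and targets of the Nodal, activin and TGF-beta pathways was looked at beside the 9 genes. Of these, 45 had a value on either chip and 42 on both, and most had low signals, with 16 tested on U74A and 21 on U74Av2. None passed the limma test for PD169316 against untreated S1 cells, where 1 of 5681 probe sets on U74A (0.0176%), 9 of 7050 on U74Av2 (0.128%) and 12 of 5369 over both (0.224%) did. None passed for SB203580, where limma called 0% of the probe sets on U74A, on U74Av2 and over both (85, 335 and 162 at an unadjusted p under 0.05, with no gene of the list among them on U74A or U74Av2). None passed for PD169316 against SB203580 either. There Smad6, an inhibitory Smad, was the 1 gene of the list under 0.05 before adjustment, at 1.58 on U74A (limma adjusted p = 0.995) and 1.21 on U74Av2 (limma adjusted p = 0.632), beside 3.75% and 7.30% of all probe sets. For D4 against S1, 0 of 21 tested passed, with 2 at an unadjusted p under 0.05, as for 6.26% of all probe sets. These were Fgf8, a growth factor of the gastrulating embryo, at 3.12 (1.41 to 4.83, limma adjusted p = 0.430), and Acvrl1 (ALK1), a type I receptor, at -1.64 (-3.02 to -0.26, limma adjusted p = 0.777). At an unadjusted p under 0.05, 2 of the 21 U74Av2 genes were higher with PD169316 and none was lower, against 349 higher and 240 lower of all 7050. These were Smad1, a mediator of BMP signals (1.29, limma adjusted p = 0.365), and Fstl1, a follistatin-like secreted protein (0.96, limma adjusted p = 0.556). Both, and Smad6, Fgf8 and Acvrl1 were singled out after their values were seen. The list's median log2 ratio with PD169316 was 0.10 on U74A and 0.050 on U74Av2.

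By role, 7 of 10 mediators and corepressors on U74A and 9 of 12 on U74Av2 had a ratio above 0 with PD169316, and the same numbers did with SB203580. Of all probe sets tested, 53.6% and 50.1% lay above 0 with PD169316 and 47.9% and 47.1% with SB203580, in the same order. Of the 12 targets known from embryos, 6 were measured, with PD169316 ratios below 0 for 5 on U74A and 3 on U74Av2, mostly near the floor. Of these, Wnt3 alone passed the signal filter in the S1 fits, on both chip versions, and Wnt3 and Fgf8 passed it in the fit of both lines. Wnt3, a ligand made at the onset of gastrulation, had 20.8 and 169 with PD169316 and 64.8 with SB203580 on S1 U74A arrays, against 177 and 91.2 in untreated cells. Wnt3 on U74Av2 read 132 and 78.9 with PD169316 and 73.3 and 112 with SB203580, against 176 and 130.5 in untreated cells, and in D4 58.4 with PD169316 against 245 in untreated cells. In S1 the PD169316 and untreated arrays overlapped on both chip versions, while the SB203580 arrays lay below the untreated ones on both. Wnt3 did not pass the limma test for either compound. In D4, 2 other targets read higher in untreated cells than on any other U74A array: Fgf8 had 132 with PD169316 against 645 in untreated cells, and Eomes, a T-box factor of early mesoderm and endoderm, 13.4 against 382.4. Fgf8 was at or under 38.8 and Eomes at or under 96.8 on the S1 U74A arrays. The D4 values come from 1 array each, and Fgf8 and Eomes were chosen after their values were seen. Goosecoid (Gsc) stayed at or under the floor in the S1 arrays, so that its ratio was 0 throughout.

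The 4 genes of that list with the largest mean S1 ratios over both chip versions all had low signals. Tgfbr3 (betaglycan, a TGF-beta co-receptor) had a mean log2 ratio of 1.32 with PD169316 and 0.78 with SB203580. Tgfbr2, the type II TGF-beta receptor, had 1.03 and -0.21 in the same order. Foxa2, a Nodal target in the embryo, had -1.05 and -0.58, and Fst (follistatin, which binds activin) -0.48 and -1.19. Of these 4, only Tgfbr3 passed the signal filter in the S1 fits, on U74Av2 alone, where its untreated arrays read 112 and 20.5.

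The genes most like Nodal, Lefty1 and Tdgf1 in pattern were sought over the 6 S1 arrays of U74Av2 among 6369 probe sets of 1 gene. Il6ra, Atp7b and Uros were most like Lefty1 (Pearson's r of 0.98 each). Mkln1, Fgf18 and Inpp5b were most like Nodal (0.99, 0.98 and 0.98), and Plxna3, Kifc3 and Art1 most like Tdgf1 (0.99, 0.99 and 0.97). Over the 5 S1 arrays of U74A the likeness was largely gone: r ranged from -0.89 (Uros) to 0.74 (Atp7b), with Il6ra at or under the floor on all 5. All of these genes were found by searching many probe sets, so the r on U74Av2 is a description.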

How the data were processed

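RNA of ES cells was hybridized to 13 arrays, Affymetrix MG_U74A (7 arrays) or MG_U74Av2 (6 arrays). Per the labels, the authors computed signal intensities with MAS 5.0 and scaled each array to a trimmed mean of 300; these deposited intensities are on a linear scale. Array number limits the precision. Groups came from the labels, and hybridization days from the deposited scanner records. Genes were named from the platform annotation, by probe sets with 1 symbol; where a gene had several, that of highest mean S1 signal stood for it. Affymetrix controls were left out, and 2611 U74A probe sets are listed at 0 on all arrays. From the intensities, log2(signal, floor 32) was computed, and the test took, within each table, probe sets that reached 100 in 2 or more of the arrays fitted, with limma 3.58.1 in R 4.3.3 (lmFit, eBayes with trend, Benjamini-Hochberg, adjusted p under 0.05). Both tables were combined by summed z scores divided by a factor that allows for their correlation. The scripts were tested on simulated data. The members, lists and rules were chosen with earlier results of these data known. The rule for named genes was all 9 members, the wider list's genes that passed a test plus the 4 with the largest mean S1 ratio, and the 3 most alike in pattern to Lefty1, Nodal and Tdgf1. Alternatives were quantile normalization, floors of 16 and 64, no filter or a minimum of 200, no trend, a replicate block and leaving out arrays.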

Additional observations from a re-analysis of the deposited data

Results flagged for a closer look

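Acvr1b, the type I receptor gene, was higher with PD169316 in both S1 pairs of U74A and lower in the D4 pair; lines that move opposite ways are listed here. The signals were 134 and 223 with PD169316 against 92.0 and 45.2 in untreated S1 cells, and 28.9 against 204.5 in D4. The D4 log2 ratio minus that of S1 was -4.10, and this difference was not tested, since both ratios selected the genes. Smad2, the signal mediator, is listed for the same reason, at 421 and 233.5 with PD169316 against 251 and 211 in untreated S1 cells and 252 against 272 in D4. Its difference was -0.56, also not tested.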

How the results depend on the processing

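Nodal, Lefty1 and Tdgf1 kept a negative S1 ratio in all 102 recomputed values (quantile normalization, floors of 16 and 64, the replicate block, the untreated day 3 arrays left out, and each S1 array left out), but not their size: with the replicate block the SB203580 ratio on U74A was -0.38 for Tdgf1 and -1.34 for Lefty1. These ratios chose the genes, so the count is a description and no independent support. Many of the values could not differ: the floors do not touch Nodal or Lefty1, and the block cannot change the PD169316 ratios or those on U74Av2. Leaving out the untreated day 3 arrays repeats leaving out untreated replicate 1. In the tested comparisons no member passed under any of 417 recomputed values, and 25 of these, in 15 of 34 results, changed sign without a call; their cause was not tested. Such uncalled sign changes outside the leave-one-out settings were Smad2 (0.27) and Furin (-0.38) in PD169316 minus SB203580 on U74A with the replicate block and Foxh1 (-0.081) there with quantile normalization, Smad2 (-0.041, quantile normalization) and Furin (-0.11, replicate block) over both tables, Smad2 in D4 minus S1 from untreated arrays alone (0.24), and Lefty1 in the untested D4 minus S1 difference of the PD169316 ratio with quantile normalization (-0.075). Leaving out 1 array gave, for PD169316 minus SB203580 on U74Av2, Nodal -0.21 to 0.11, Tdgf1 -0.57 to 0.056 and Furin -0.044 to 0.37; on U74A, Lefty1 -1.57 to 0.68, Tdgf1 -2.51 to 0.20, Acvr2b -0.69 to 0.27, Smad2 -0.43 to 0.42 and Furin -0.33 to 0.55; over both, Lefty1 -0.63 to 0.49, Smad2 -0.15 to 0.27 and Furin -0.085 to 0.36. For D4 minus S1 it gave Acvr1b -2.44 to 1.67, Smad2 -0.31 to 0.24 and Pcsk6 -0.69 to 0.16, and for that difference of ratios Lefty1 -1.02 to 1.23, Tdgf1 -0.25 to 2.46, Acvr2b -0.15 to 0.81, Foxh1 -0.54 to 0.78 and Furin -0.36 to 0.72.

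The median ratio of the 9 genes with SB203580 moved on U74Av2 to -0.062 with quantile normalization and -0.12 without the untreated day 3 array, and on U74A to -0.53 without it; leaving out 1 array gave -0.28 to 0.042 on U74Av2, -0.53 to -0.17 on U74A, and -0.27 to 0.20 for PD169316 on U74Av2. For PD169316 against SB203580 on U74Av2, the 3 calls became 0 with quantile normalization, a floor of 64, no filter, a minimum of 200 or no trend, 22 with the replicate block, and 0 to 24 with 1 array left out. On U74A, 0 became 73 with no filter and 4 without the untreated day 3 array. Over both tables, 6 became 3 (quantile normalization, floor of 64), 0 (no filter, no trend), 13 (replicate block, or without the untreated day 3 arrays), 37 (tables taken as independent) and 0 to 6 with 1 array left out. With no filter, D4 against S1 gave 11 calls and the interaction 393; the filter removes all 11, 392 of the 393 and all 73, as these alternatives test more probe sets; the cause of the other changes was not tested. Same-numbered arrays deviated from their group means with correlations of 0.21 on U74A and 0.080 to 0.18 on U74Av2. The main fits therefore did not pair arrays by number, while the pair ratios did set same-numbered arrays against each other. The numbers follow hybridization day, except that days 4 and 5 share a number. No member passed with the block, though the interval of the Tdgf1 difference between compounds on U74A, -1.97 (-3.69 to -0.25), then lay below 0. The D4 ratio to untreated cells comes from 1 pair and was not recomputed with an array left out.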
